A study of Mus musculus with 30 samples.

Results

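Transposon insertions were examined in 3 large olfactory receptor gene clusters of the mouse genome, given on build GRCm39. They were chosen as large olfactory receptor clusters described as silent in liver, and a site belongs to a cluster by its position. The clusters span 85.2 to 90 Mb of chromosome 2 (4.8 Mb), 102.2 to 108.4 Mb of chromosome 7 (6.2 Mb) and 37.7 to 40 Mb of chromosome 9 (2.3 Mb). They held 5899 of the 2181734 site records of the series, of which 2961 of 1232298 were PB records and 2938 of 949436 were SB records. A site record is 1 position and strand in 1 liver.

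The study mapped integration sites of therapeutic transposons in genomic DNA of livers from TT1 mice, a Fah knockout model of tyrosinemia type I. A PB (piggyBac) group of 17 livers and an SB (Sleeping Beauty) group of 13 livers were compared, each liver being 1 replicate. All livers were from treated animals, and there was no untreated liver among them. Ages, doses and times after treatment were not given in the sources used here, nor was what sets livers numbered 13 and above apart. The Fah knockout is shared by both groups, and repopulation by corrected cells is part of this model, so a liver samples the cells that were present at collection. Site records per liver were 16364, 71305 and 124238 (lowest, median, highest) in PB livers and 4893, 80254 and 120220 in SB livers. SB liver 13 had the fewest. The reads were amplified and carry no molecular identifiers, so they do not count molecules, and the number of insertions behind a site is not known.

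Olfactory receptors are G-protein-coupled receptors that bind odorants on sensory neurons of the nose. Their genes form one of the largest gene families of mammals, and most lie in tandem arrays formed by local duplication. Each olfactory neuron expresses a single receptor allele, and in other cells the arrays are usually packed as repressed chromatin. PB inserts at TTAA tetranucleotides and SB at TA dinucleotides. RNA and chromatin were not analysed here, so the description of the clusters as silent in liver was not examined.

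In the order of genes of the RefSeq table for GRCm38.p6, the chromosome 2 array was 1 run of 293 olfactory receptor genes, 222 of them protein coding, between Lrrc55 and Ptprj. It enclosed 3 other protein-coding genes, Fads2b, Pramel7 and Pramel6. The chromosome 9 array was 1 run of 127 such genes, 95 of them protein coding, between Panx3 and Zfp202, and enclosed Vwa5a, AW551984 and Tmem225. Chromosome 7 held 2 runs. The first had 158 olfactory receptor genes (126 protein coding) and enclosed 27 other protein-coding genes, among them 5 beta-globin genes (Hbb), which encode haemoglobin chains of red cells, and 12 Trim genes, several of which restrict viruses. The second had 80 (67 protein coding) and enclosed 7 others, among them Syt9, a synaptotagmin of vesicle release. Between the runs lay 21 protein-coding genes, among them Hpx, which encodes the liver's haem-binding plasma protein hemopexin, the lysosomal enzyme genes Smpd1 and Tpp1, and Ilk, an adhesion kinase. The chromosome 7 cluster is therefore the one with most other genes in its interior. Steps and positions on GRCm39 were not assigned to these genes, since the builds differ.

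The gene starts in these arrays are shown because they hold the letters that PB requires. Among protein-coding olfactory receptor genes of the arrays, the promoter with most TTAA words on each chromosome was taken. Each is printed 5′ to 3′ from RefSeq (GRCm38.p6), 250 bases before to 50 after the gene's start, with TTAA in capitals. Olfr1065 lies at chr2:86445955-86446254 on the minus strand and holds 8 such words, Olfr669 at chr7:104938278-104938577 on the plus strand holds 9, and Olfr1537 at chr9:39238382-39238681 on the minus strand holds 12. They were picked for these counts and are the extremes of those genes, not typical members.
Olfr1065: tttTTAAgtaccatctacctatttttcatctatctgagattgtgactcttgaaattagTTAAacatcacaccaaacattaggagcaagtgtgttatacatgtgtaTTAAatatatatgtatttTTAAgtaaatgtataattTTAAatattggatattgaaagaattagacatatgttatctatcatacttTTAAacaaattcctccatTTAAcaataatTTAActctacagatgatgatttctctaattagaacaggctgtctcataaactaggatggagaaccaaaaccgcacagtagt
Olfr669: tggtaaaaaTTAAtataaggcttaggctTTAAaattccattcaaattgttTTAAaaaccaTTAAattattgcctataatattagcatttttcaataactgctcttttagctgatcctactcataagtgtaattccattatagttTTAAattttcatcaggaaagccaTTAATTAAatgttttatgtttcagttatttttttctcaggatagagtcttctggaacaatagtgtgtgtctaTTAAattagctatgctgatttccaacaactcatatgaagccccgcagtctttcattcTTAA
Olfr1537: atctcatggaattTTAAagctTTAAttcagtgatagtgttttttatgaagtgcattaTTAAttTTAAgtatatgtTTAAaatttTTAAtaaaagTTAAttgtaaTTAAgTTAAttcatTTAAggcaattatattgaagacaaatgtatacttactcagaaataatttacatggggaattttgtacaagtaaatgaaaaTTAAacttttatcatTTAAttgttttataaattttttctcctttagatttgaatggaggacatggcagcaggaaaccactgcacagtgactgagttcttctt

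Promoters were found in the RefSeq table for 435 genes of the arrays (437 promoters of 300 bases). These were 186 of the 293 genes on chromosome 2 and 79 of the 127 on chromosome 9. On chromosome 7 they were 170 genes, where the 2 runs held 158 and 80. The other genes of the arrays are not in these counts. The word TTAA, which reads the same on both strands, occurred in 87.4% of them, against 51.9% of the 32414 other promoters and 52.4% of all promoters. The mean number per promoter was 2.54 in the arrays and 0.939 elsewhere. The word TA, which also reads the same on both strands and lies inside every TTAA, averaged 24.6 per promoter in the arrays and 11.2 elsewhere. A and T made up 65.6% ± 5.31 of the bases in the arrays and 45.9% ± 11.1 elsewhere (SD over promoters). By array, TTAA occurred in 93% of promoters on chromosome 2, 81.8% on chromosome 7 and 86.3% on chromosome 9. The gene starts found for the arrays were thus richer in both target words than other gene starts. The words between gene starts were not counted.

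**Figure D1:**
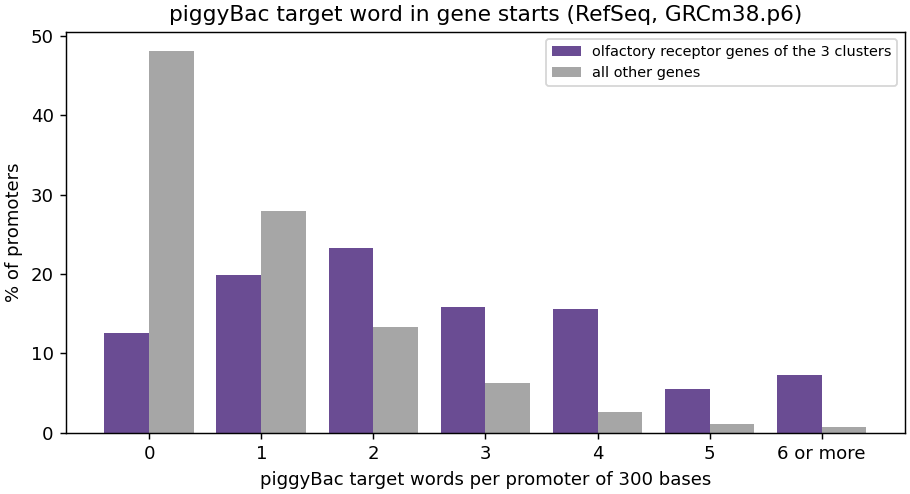
Share of promoters of 300 bases (y axis, %) by the number of PB target words they hold (x axis), for the 437 promoters of olfactory receptor genes in the 3 arrays (left bars) and the 32414 other promoters (right bars). No target word was found in 12.6% of array promoters and in 48.1% of the others.

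All 3 clusters were poor in mapped insertion sites in both groups. How well reads can be placed in arrays of duplicated genes was not tested. Together the clusters span 13.3 Mb, or 0.489% of nuclear chromosome lengths up to the last site, with gaps in sequence not taken out. They held 0.213, 0.232 and 0.293% of a liver's nuclear sites in PB livers (lowest, median, highest) and 0.277, 0.313 and 0.409% in SB livers. The means were 0.244% ± 0.0241 in PB livers and 0.316% ± 0.0357 in SB livers (SD, n = 17 and 13). A liver had 41, 175 and 329 sites there in PB and 20, 239 and 382 in SB (lowest, median, highest). Every liver of either group was thus below the share that the clusters' length would give.

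The clusters were then set against the 5 Mb on each side. On chromosome 2, PB livers had 12, 53 and 93 sites in the cluster (lowest, median, highest) and SB livers 8, 85 and 141. Per Mb and per 10000 sites of a liver, the cluster density in PB livers was 1.53 ± 0.218 against 4.55 ± 0.243 in their flanks. In SB livers it was 2.44 ± 0.409 against 4.32 ± 0.354 (SD, n = 17 PB and 13 SB). The log2 ratio of cluster to flank density, with 0.5 added to each count, was -1.57 ± 0.18 in PB livers (range -1.86 to -1.14). This is 2.97-fold lower in the cluster, and all 17 livers were below 0. In SB livers it was -0.83 ± 0.27 (range -1.19 to -0.44), 1.78-fold lower, with all 13 below 0. In exact two-sided sign-flip permutation tests over livers, the adjusted p was 6.41e-05 in PB and 0.000732 in SB. The raw p-values, 1.53e-05 with 17 livers and 0.000244 with 13, are the smallest these tests can give. P-values of the tests per liver are adjusted over all 21 that were run.

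The chromosome 7 cluster is the longest and held the most sites. PB livers had 18, 100 and 195 sites there (lowest, median, highest) and SB livers 7, 125 and 191. The density was 2.27 ± 0.363 per Mb per 10000 sites against 6.49 ± 0.249 in the flanks of PB livers. In SB livers it was 2.45 ± 0.208 against 6.07 ± 0.516. The log2 ratio was -1.52 ± 0.23 in PB livers (2.87-fold lower, all 17 below 0) and -1.30 ± 0.20 in SB livers (2.46-fold lower, all 13 below 0). The adjusted p of the exact permutation tests was again 6.41e-05 in PB and 0.000732 in SB. The flanks here were the densest of the 3 sets in both groups.

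On chromosome 9, sites were few. PB livers had 4, 22 and 41 in the cluster (lowest, median, highest) and SB livers 5, 31 and 50. The density was 1.28 ± 0.245 per Mb per 10000 sites against 4.09 ± 0.210 in the flanks of PB livers. In SB livers it was 2.08 ± 0.746 against 3.77 ± 0.223. The log2 ratio was -1.65 ± 0.30 in PB livers (3.14-fold lower, all 17 below 0; adjusted p = 6.41e-05, exact permutation test). In SB livers it was -0.89 ± 0.46 (1.85-fold lower, 12 of 13 below 0; adjusted p = 0.00128, exact permutation test). The exception was SB liver 13, at 0.45, with 5 sites in the cluster and 17 in the flanks. Without it the SB mean was -0.999.

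**Figure D2:**
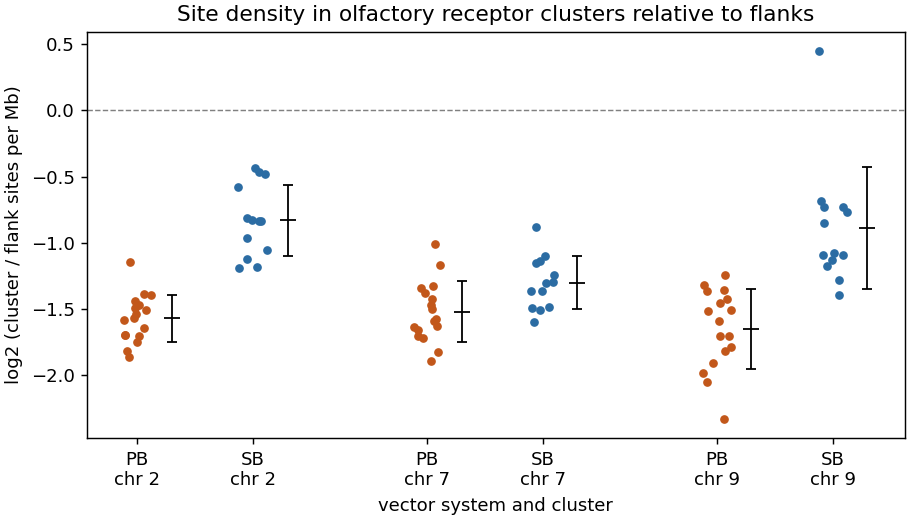
The log2 ratio of site density in the cluster to that in its 5 Mb flanks (y axis), with 1 point per liver, for PB (left) and SB (right) at each cluster, and the mean and SD as bars. All points but 1 lie below 0; the exception, at 0.45 on chromosome 9, is SB liver 13.

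The depletion against the flanks was deeper in PB than in SB livers. The PB minus SB difference of the log2 ratios was -0.74 on chromosome 2 and -0.76 on chromosome 9, each with an adjusted p of 6.41e-05 in two-sided permutation tests with 100000 resamples. The raw p of 1e-05 is the smallest these resamples can give. On chromosome 7 the difference was -0.22 (adjusted p = 0.0235, permutation test). Each liver weighs the same here, also SB liver 13 with its few sites. Without that liver the differences were -0.71, -0.24 and -0.65 on chromosomes 2, 7 and 9, and the calls were the same. With all livers kept, the groups overlapped in all 3 clusters. A PB liver was below every SB liver in 16 of 17 cases on chromosome 2, 7 of 17 on chromosome 7 and 13 of 17 on chromosome 9. An SB liver was above every PB liver in 11, 1 and 11 of 13 cases, in the same order.

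These PB and SB differences did not pass the threshold without insertion positions found in more than 1 liver, strands pooled. When such positions were left out of both cluster and flanks, the difference was -0.18 on chromosome 2 (adjusted p = 0.109), 0.13 on chromosome 7 (adjusted p = 0.36) and -0.14 on chromosome 9 (adjusted p = 0.552, permutation tests). The depletion within each group remained past the threshold at every cluster in that setting. Leaving such positions out removes more of the PB flanks than of the PB clusters. On chromosome 2, PB flank sites went from 5622 to 3313 and PB cluster sites from 887 to 783. This lessens the PB depletion by construction, so the setting cannot show whether the differences depend on those positions. The chromosome 9 difference was -0.37 with flanks of 2 Mb (adjusted p = 0.0661). The chromosome 7 difference was -0.15 with flanks of 10 Mb (adjusted p = 0.105) and -0.13 against all autosomes outside the clusters (adjusted p = 0.158, permutation tests).

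Livers numbered 1 to 6, 7 to 12 and 13 and above were also looked at separately. The cut between 6 and 7 followed ranges of the chromosome X share of sites, whose values are not given here. The chromosome 7 ratio in livers 1 to 6 was -1.58 ± 0.25 in PB and -1.42 ± 0.09 in SB (SD, n = 6 each). In livers 7 to 12 it was -1.51 ± 0.16 in PB and -1.14 ± 0.15 in SB. The PB mean was below the SB mean in both sets. On chromosome 2 the means in livers 1 to 6 were -1.60 in PB and -0.90 in SB, and in livers 7 to 12 they were -1.63 in PB and -0.82 in SB. On chromosome 9 they were -1.64 in PB and -1.002 in SB in livers 1 to 6, and -1.65 in PB and -0.996 in SB in livers 7 to 12. The 5 PB livers numbered 13 and above had means of -1.46, -1.46 and -1.65 on chromosomes 2, 7 and 9. The sole SB liver there, SB liver 13, had -0.47, -1.59 and 0.45.

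Densities in the clusters themselves, without flanks, were compared between the groups in 1 limma-voom fit over the genome. Each cluster entered as 1 feature among 2570 features that were otherwise windows of 1 Mb. The log2 difference, PB minus SB, was -0.64 (SE 0.07) on chromosome 2, with a limma adjusted p of 1.21e-11, and -0.55 (SE 0.10) on chromosome 9, with 7.72e-06. On chromosome 7 it was -0.14 (SE 0.07), with a limma adjusted p of 0.0607. Of all features, 19.5% were called higher in PB and 38.8% higher in SB, so a call in favour of SB was common across the genome. The median feature had a difference of -0.16. Relative to it, the differences were -0.48, 0.02 and -0.39 on chromosomes 2, 7 and 9, so the sign turned on chromosome 7. A lower difference was found in 14.98% of features for chromosome 2, 51.7% for chromosome 7 and 20.5% for chromosome 9. With positions in 1 liver only, the differences were -0.15, 0.06 and -0.04, and the limma adjusted p-values were 0.145, 0.614 and 0.848.

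All 15 windows of 1 Mb that overlap the clusters were tested in the plain tiling. Of these, 8 were called higher in SB (4 of 5 on chromosome 2, 3 of 7 on chromosome 7 and 1 of 3 on chromosome 9) and 0 higher in PB in the limma fit, which at an unadjusted p under 0.05 were also 8 and 0. Among all 2578 windows, 38.9% were called higher in SB and 19.3% higher in PB. The windows with the largest differences were 86 to 87 Mb of chromosome 2, at -0.85 (limma adjusted p = 2.28e-05), 39 to 40 Mb of chromosome 9, at -0.76, and 87 to 88 Mb of chromosome 2, at -0.75. In the first, PB livers averaged 1.33 ± 0.644 sites per 10000 and SB livers 2.71 ± 1.72. Among livers 1 to 12 the means there were 1.33 ± 0.554 in PB and 2.26 ± 0.531 in SB, and the difference was -0.85.

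Of the 133 steps of 100 kb in the clusters, 85 averaged 1 or more sites per liver over both groups together and were tested. They gave 13 calls higher in SB (9 of 30, 3 of 42 and 1 of 13 on chromosomes 2, 7 and 9) and 1 higher in PB. These are 15.3% and 1.18% of the steps tested in the clusters. By cluster, the share higher in SB was 30, 7.14 and 7.69%. Over all 20887 steps tested, 14.5% were called higher in SB and 10.3% higher in PB. The pooled share towards SB was thus near that of all steps, and only chromosome 2 was above it. The step higher in PB was 105.8 to 105.9 Mb of chromosome 7, with 9.14 ± 4.91 sites per Mb per 10000 in PB livers and 4.55 ± 2.66 in SB livers (log2 difference 0.82, limma adjusted p = 0.0214). The largest differences towards SB were at 106.4 Mb of chromosome 7 (-1.26), 85.7 Mb of chromosome 2 (-1.21) and 87.9 Mb of chromosome 2 (-1.17). At 85.7 Mb, PB livers averaged 1.70 ± 1.51 and SB livers 4.96 ± 2.92 sites per Mb per 10000, in a stretch from 85.4 to 85.8 Mb whose 4 steps were all called higher in SB. At 87.9 Mb of chromosome 2, PB livers averaged 1.27 ± 1.95 and SB livers 5.05 ± 5.48. At 39.6 Mb of chromosome 9, the called step had 1.23 ± 2.21 in PB livers and 5.50 ± 10.8 in SB livers. At both steps the SD was wider than the mean in both groups. SB liver 13 had 4893 sites, so 1 site there weighs more in these SB means than 1 site in a deeper liver. These steps were not refitted without it. Since the filter pooled the groups, a step with few PB sites could be tested through its SB sites. On chromosome 2, the called steps at 85.6, 86.5, 87.2, 87.9 and 88.2 Mb held 12, 9, 15, 16 and 15 PB sites. That is under 1 per liver over the 17 PB livers, so their calls towards SB are given as a description only.

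The clusters were sparse but not the emptiest parts of the genome. The 11 windows of 1 Mb that lie wholly inside them were all below the median of the 2412 autosomal windows, which was 3.56 sites per 10000 in PB and 3.84 in SB. They ranked between the 12.4th and 44.0th percentile in PB and between the 2.90th and 35.6th in SB. Of the 11, 0 were in the lowest 10% in PB and 2 in SB, while 6 were in the lowest 25% in each group. The sparsest for SB was 88 to 89 Mb of chromosome 2, with 1.32 sites per 10000, where PB had 1.25. The densest for both was 107 to 108 Mb of chromosome 7, with 3.08 in PB and 3.04 in SB.

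Within the clusters, sites were summed over the livers of a group in steps of 100 kb. The median cluster step held 15 PB sites on chromosome 2, 16 on chromosome 7 and 15 on chromosome 9, against 31, 65 and 26 in the flanks. For SB the medians were 18.5, 20 and 17, against 34.5, 58 and 32. No step of 100 kb was empty in either group in these sums over livers. In steps of 50 kb, 2 were empty for PB and 1 for SB, all in the chromosome 7 cluster. Steps at or above the flank median numbered 5 of 48, 7 of 62 and 1 of 23 for PB, and 7, 2 and 2 for SB. Of these, 4, 2 and 1 were the same steps in both groups.

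The densest step was the same in PB and SB at every cluster. On chromosome 2 it was 85.8 to 85.9 Mb, with 77 PB sites in 16 livers and 61 SB sites in 12 livers. On chromosome 7 it was 107.2 to 107.3 Mb, with 142 PB sites in all 17 livers and 86 SB sites in all 13. On chromosome 9 it was 38.6 to 38.7 Mb, with 42 PB sites in 14 livers and 33 SB sites in 11. No single liver made these peaks, since the most sites from 1 liver were 11, 15 and 7 in PB and 9, 13 and 6 in SB. The sparsest step was also shared on chromosome 2, at 89 to 89.1 Mb with 6 PB and 3 SB sites, and on chromosome 7, at 105.7 to 105.8 Mb with 3 PB sites and 1 SB site. It lies next to the step at 105.8 Mb that was called higher in PB. On chromosome 9 the sparsest step was 38 to 38.1 Mb for PB (7 sites, against 19 in SB). For SB it was 38.8 to 38.9 Mb, with 16 sites in PB and 7 in SB.

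Unevenness was measured as the coefficient of variation over steps beyond counting error, where 0 means that steps vary no more than counting allows. For PB it was 0.666, 0.972 and 0.335 in the clusters on chromosomes 2, 7 and 9, against 1.03, 0.777 and 1.03 in their flanks. For SB it was 0.552, 0.587 and 0.307, against 0.613, 0.381 and 0.524. With positions in 1 liver only, the PB cluster values were 0.425, 0.653 and 0.196, against 0.711, 0.571 and 0.728 in the flanks. The chromosome 7 cluster was the one more uneven than its flanks in both groups. Its 7 steps that reached the PB flank median, at 103.8 to 104.0, 105.0, 105.2, 105.8 and 107.1 to 107.3 Mb, held 37.7% of its PB sites and 24.9% of its SB sites. These steps were chosen by their PB counts, so the comparison is a description. Outside such steps in each cluster, density over the whole flanks was 0.264, 0.243 and 0.294 for PB on chromosomes 2, 7 and 9. For SB it was 0.470, 0.353 and 0.474. Dense flank steps were kept, so a lower PB ratio in the rest of the cluster follows by construction. No comparison of PB with SB is drawn from these values.

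**Figure D3:**
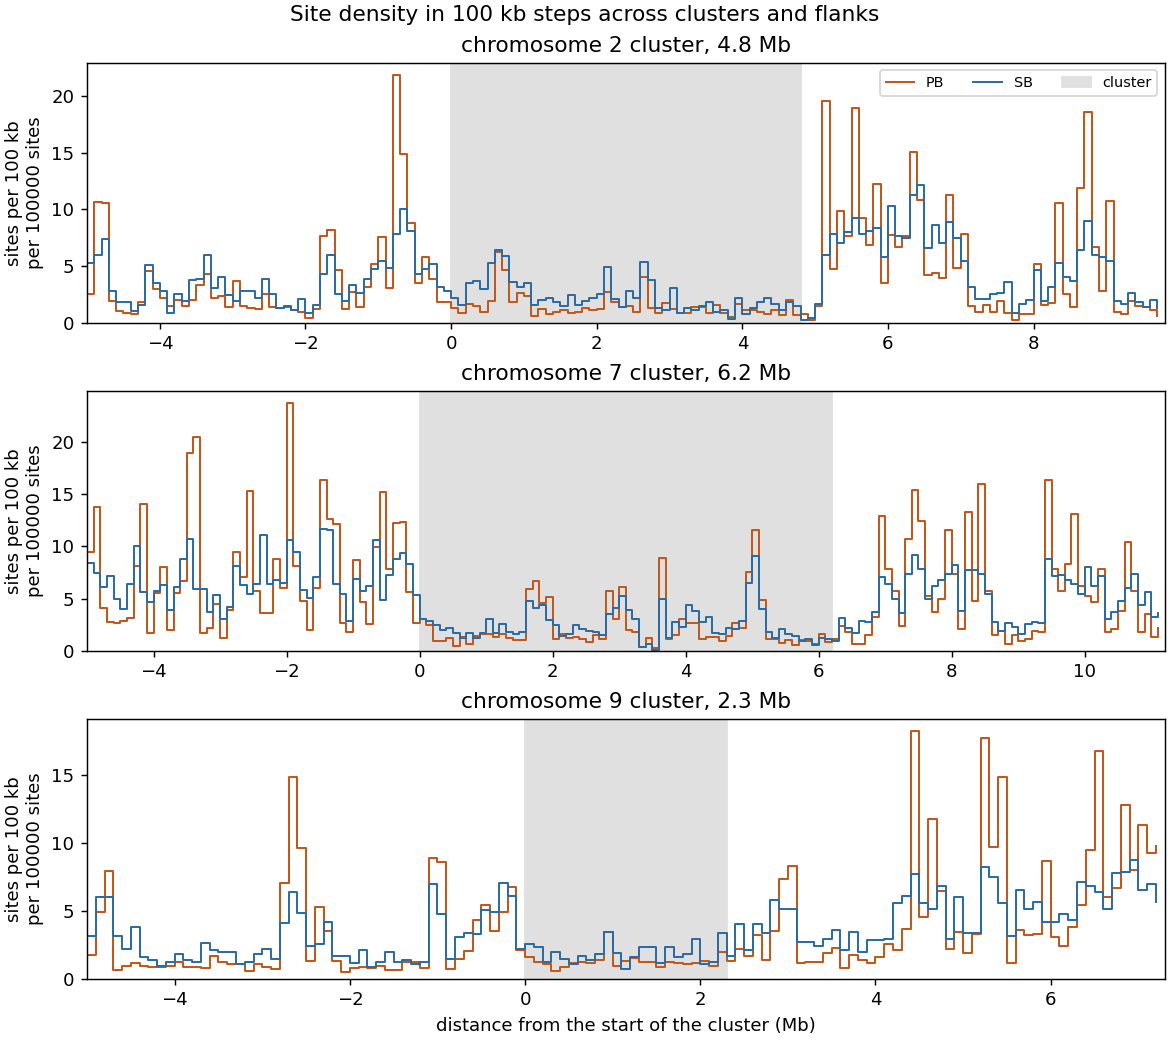
Sites per 100 kb step per 100000 sites of the group (y axis) against distance from the start of each cluster in Mb (x axis), for PB and SB, with clusters shaded and 5 Mb of flank on both sides. Densest cluster steps coincide in PB and SB, and the chromosome 7 cluster holds several separate peaks.

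The edges of the clusters differed in sharpness. In the 0.5 Mb just inside and outside the left edge, PB had 77 and 208 sites on chromosome 2, 106 and 501 on chromosome 7, and 66 and 280 on chromosome 9. SB had 132 and 192, 119 and 371, and 91 and 241. At the right edge PB had 64 sites inside and 329 outside on chromosome 2, 63 and 81 on chromosome 7, and 79 and 121 on chromosome 9. SB had 79 and 153, 48 and 103, and 99 and 144. The side of the flank also mattered. PB density in the chromosome 9 cluster was 0.481 of the left flank and 0.237 of the right, and SB density was 0.677 of the left and 0.387 of the right. Every cluster was below either flank in both groups.

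Insertion at exactly the same position and strand in another liver of the group was rarer in the clusters than in the flanks. Such reused sites made up 8.79% (78 of 887), 19.0% (325 of 1710) and 7.69% (28 of 364) of PB sites in the clusters on chromosomes 2, 7 and 9, against 30.5, 33.1 and 33.0% in the flanks. For SB they made up 0.747% (8 of 1071), 0.618% (9 of 1456) and 0.487% (2 of 411), against 2.23, 2.39 and 1.60%. The share was lower in the cluster than in the flanks in 17, 17 and 16 of 17 PB livers and in 10, 12 and 10 of 13 SB livers. Each coincidence counts in both livers, so these are descriptions with no test. A region with fewer sites also has fewer chances of coincidence. Counted per pair of sites from different livers, coincidences per 1000000 pairs were 173, 202 and 278 in the PB clusters, against 135, 99.3 and 180 in the PB flanks. These rates are not scaled for length, and a shorter region gives a higher rate by itself. The clusters are 4.8, 6.2 and 2.3 Mb long and the flanks 5 Mb on each side, so the rates do not compare reuse between them. If all targets were used equally, these rates would correspond to 1206, 798 and 1566 targets per Mb in the PB clusters and 743, 1008 and 557 in the PB flanks. For SB the same figure was 27183, 25913 and 33474 in the clusters and 16136, 21009 and 20638 in the flanks. It is an effective number, not a count of target words. It was higher in the cluster than in its flanks on chromosomes 2 and 9 in both groups, and on chromosome 7 it was lower in PB and higher in SB. The cluster values rest on 63, 274 and 17 coincidences in PB and on 4, 6 and 1 in SB.

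**Figure D4:**
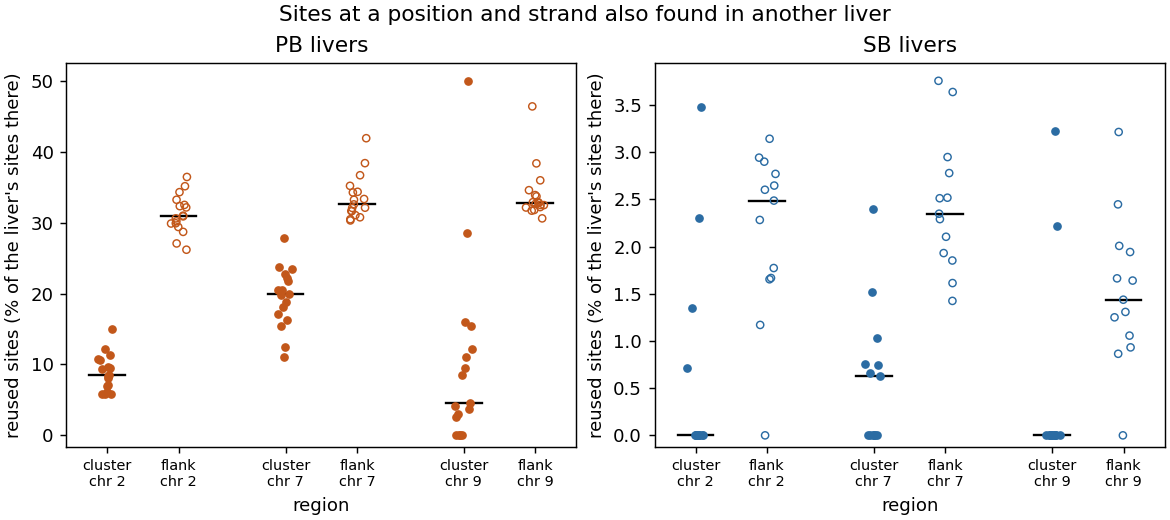
Share of a liver's sites whose position and strand also occurred in another liver of its group (y axis, %), in clusters (filled) and flanks (open), with 1 point per liver and the median as a line, for PB (left panel) and SB (right panel, another scale). PB shares were lower in the chromosome 2 and 7 clusters than in their flanks in all 17 livers; the PB point at 50% on chromosome 9 is PB liver 17, with 3 of 6 sites reused there.

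The positions found in most livers, with strands pooled, were PB positions. On chromosome 7 the position 107166560 to 107166563 was hit in 9 PB livers, 6 times on the plus and 3 times on the minus strand, and lies beside the densest step. Positions 105250361 to 105250364 and 103964380 to 103964383 were each hit in 7 PB livers. On chromosome 2, 3 positions were hit in 6 PB livers each, at 85900883 to 85900886, 85899552 to 85899555 and 87351256 to 87351259. On chromosome 9, 39903735 to 39903738 and 38629602 to 38629605 were hit in 4 PB livers each, and 37869165 to 37869168 in 3. For SB the most was 3 livers, at 102930609 to 102930610 of chromosome 7, all on the minus strand, and 2 livers on chromosomes 2 and 9. The first of several SB positions hit in 2 livers were 85413472 to 85413473 on chromosome 2 and 37817326 to 37817327 on chromosome 9. Most positions were seen in 1 liver, 782 of 820 PB positions on chromosome 2, 1241 of 1415 on chromosome 7 and 328 of 343 on chromosome 9. PB and SB shared 2, 1 and 1 positions.

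Strands were even. Minus-strand sites made up 52.6, 50.6 and 51.9% of PB sites and 50.1, 53.2 and 53.3% of SB sites in the clusters on chromosomes 2, 7 and 9. The difference from the flanks passed the threshold in none of the 6 comparisons over livers with at least 10 cluster sites. At an unadjusted p under 0.05 there was 1, chromosome 7 in SB, at 3.59 ± 5.20 percentage points higher in the cluster (SD, n = 12; p = 0.0376, adjusted p = 0.0718, exact permutation test). Both strands at 1 position in 1 liver occurred at 4 of 883, 20 of 1690 and 1 of 363 liver positions in the PB clusters. This is 0.453, 1.18 and 0.275%, against 2.63, 2.85 and 3.27% in the PB flanks. In SB it occurred at 1 of 1070, 2 of 1454 and 0 of 411.

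The deposited table gives each site a whole number beside its strand, which is not defined in the sources used here and was at least 3. Its median over the sites of a liver was compared between cluster and flanks within livers. The median in the chromosome 2 cluster was 17, 66 and 150 in PB livers (lowest, median, highest) and 33, 45 and 107 in SB livers. The chromosome 7 medians were 17, 61.5 and 172 in PB livers and 32, 52.5 and 90 in SB livers. The log2 ratio of cluster to flanks was -0.03 ± 0.10 on both chromosomes in PB (n = 17), and -0.06 ± 0.17 and 0.05 ± 0.13 in SB (n = 12). None of these passed the threshold, and the smallest unadjusted p was 0.229 (exact permutation tests). On chromosome 9 it was -0.07 ± 0.13 in PB (n = 13; adjusted p = 0.166, exact permutation test). In SB it was -0.12 ± 0.14, a 1.09-fold lower number in the cluster, with 10 of 12 livers below 0 (adjusted p = 0.016, exact permutation test). That call ended when sites under 10 were left out (-0.07, adjusted p = 0.198) and with flanks of 2 Mb (-0.13, adjusted p = 0.0709, exact permutation tests). It held in every other setting, with adjusted p from 0.00615 (merged sites) to 0.041 (positions in 1 liver only, exact permutation tests). With the mean of log2 numbers, PB also passed on chromosomes 2 (-0.10) and 9 (-0.16), but not on chromosome 7 (-0.04).

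The highest number at any cluster site was 605, at 104163571 to 104163574 of chromosome 7 on the plus strand in PB liver 16. It ranked 5 of the 16364 sites of that liver, whose median was 160. The highest on chromosome 2 was 301 in PB (85268596 to 85268599, PB liver 1) and 344 in SB (89893370 to 89893371, SB liver 13). On chromosome 9 it was 265 in PB (38206595 to 38206598, PB liver 16) and 215 in SB (38741067 to 38741068, SB liver 4). The SB maximum on chromosome 7 was 332, at 106827801 to 106827802 in SB liver 4. Cluster sites in the top 1% of their liver numbered 22 of 2961 in PB (0.743%, against 1.02% of all PB sites) and 27 of 2938 in SB (0.919%, against 1.03%).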

How the data were processed

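Genomic DNA of 30 livers (17 PB, 13 SB) was analysed by streptavidin-based enrichment sequencing (SBE-seq), in which nested PCR amplifies transposon junctions, per the labels' protocols. Per the submitters' processing notes, cutadapt, BWA and the build GRCm39 were used; their versions and roles are not given in the sources used here. Each deposited liver table lists chromosome, start, end and a field that joins the strand with an undefined whole number. PB sites span 4 bases and SB sites 2. The deposited merged tables were not used. Depth per liver is given with the groups.

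The regions, lists and tests were chosen with earlier results of these data known. Sites were counted per liver in clusters, flanks, 1 Mb windows and 100 kb steps. Windows were tested with limma 3.58.1 (voom weights, nuclear sites per liver as library size, windows averaging 1 or more sites per liver, Benjamini-Hochberg adjusted p under 0.05) in R 4.3.3, and the fit was tested on simulated counts. Other values and permutation tests used Python 3.11.15, numpy 2.4.6 and pandas 2.3.3. Named were the densest and sparsest step of each cluster and group, up to 3 called windows per direction, up to 3 positions in most livers and the site with the highest number. At 85.4 to 85.8 Mb of chromosome 2 and 39.6 Mb of chromosome 9, steps were named after their values were seen. Alternatives were flank width, cluster edges, pseudocount, site filters, merging within 10 bp, scaling, left-out livers and the liver number as a block. No genome of build GRCm39 was used, so target words were counted only in GRCm38.p6 promoters. P-values measure the spread between livers.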

Additional observations from a re-analysis of the deposited data

Results flagged for a closer look

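The ratio of cluster to flank density differed between the vector systems in a test of the difference itself, which is why these results were singled out. The log2 ratio, PB minus SB, was -0.74 for the chromosome 2 cluster, -0.22 for chromosome 7 and -0.76 for chromosome 9. The adjusted p-values of the permutation tests were 6.41e-05, 0.0235 and 6.41e-05. The differences without positions found in more than 1 liver (-0.18, 0.13 and -0.14) did not pass the threshold. That setting lessens the PB depletion by construction, so it cannot show whether the differences depend on those positions. Chromosome 9 did not pass with flanks of 2 Mb (adjusted p = 0.0661, permutation test). Chromosome 7 did not pass with flanks of 10 Mb (adjusted p = 0.105) or against the autosomes (adjusted p = 0.158, permutation tests). Without SB liver 13 the chromosome 9 difference was -0.65.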

How the results depend on the processing

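The depletion within each group held, past the threshold, in all 57 alternative values (-2.10 to -0.50, largest adjusted p 0.00806). In all, 218 alternative values changed neither direction nor call. Where a result changed, the cause was not tested beyond what each setting removes by construction.

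With positions in 1 liver only, cluster density, PB minus SB, was -0.149, 0.0599 and -0.0403 on chromosomes 2, 7 and 9, and the cluster over flank difference was -0.18, 0.13 and -0.14. The PB ratios of the number beside the strand turned to 0.0501, 0.000161 and 0.0291, the chromosome 2 PB strand difference to -0.477 points, and PB unevenness to 0.425, 0.653 and 0.196. The cluster over flank difference was -0.37 on chromosome 9 with flanks of 2 Mb, and on chromosome 7 it was -0.15 with flanks of 10 Mb and -0.13 against the autosomes.

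Chromosome 7 density passed the threshold at -0.16 in livers 1 to 12, -0.17 with numbers of at least 10, -0.15 with sites within 10 bp merged and -0.141 without SB liver 13, and turned to 0.0221 when centred on the median feature. With the replicate block it was -0.16 (adjusted p = 0.0444 in limma), and the block changed no other call. Same-numbered PB and SB livers had correlations of 0.0440 to 0.187 over windows of all chromosomes, over 0.1 in 10 of 13 pairs. On autosomes, a check added after the first had been seen, they were -0.0523 to 0.0695, over 0.1 in 0 of 13. A PB liver was closest to the SB liver of its number in 2 of 13 cases over all chromosomes and 1 of 13 on autosomes. Neither check met the rule for pairing, so the numbers were not used as pairs.

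Numbers of at least 10 gave ratios of 0.0143 (chromosome 2, PB) and -0.0737 (chromosome 9, SB), and strand differences of -0.585 (chromosome 2, SB), -0.428 (chromosome 9, PB) and -1.91 points (chromosome 9, SB). Flanks of 2 Mb gave a ratio of -0.13 (chromosome 9, SB) and strand differences of 4.81 (chromosome 2, PB), 0.326 (chromosome 7, PB) and 4.57 points (chromosome 7, SB), the first and last past the threshold. Flanks of 10 Mb gave -0.468 (chromosome 2, SB) and 0.775 points (chromosome 7, PB). Strand differences were 0.0038 points in livers 1 to 12 (chromosome 7, PB), 3.90 with merged sites (chromosome 7, SB, past the threshold), -0.735 in narrowed clusters (chromosome 9, SB), and 0.439 (chromosome 7, PB) and -0.564 (chromosome 9, SB) with at least 20 cluster sites. The mean of log2 numbers gave -0.10 and -0.16 for PB on chromosomes 2 and 9, past the threshold.

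Steps of 50 kb gave a chromosome 2 PB unevenness of 0.808. With strand ignored, reused sites on chromosomes 2, 7 and 9 were 11.4, 26.6 and 9.64% in PB and 1.68, 1.58 and 0.973% in SB. Reuse with sites within 10 bp merged was added after seeing the data and stayed within the spread between livers. Depth limits chromosome 9 most, where 4 PB livers and 1 SB liver had under 10 sites in the cluster.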
